A study of Rattus norvegicus with 252 samples.

Results

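ENSRNOG00000025889, ENSRNOG00000003687, ENSRNOG00000061215 and ENSRNOG00000019246 are 4 of the 32883 rat genes listed in a brain RNA-seq count table. They were selected on a measured value: of the genes higher in Q130 than in wild-type (WT) cerebellum at 12 months, these had the lowest p. The files name genes by Ensembl rat identifier only and nothing used here pairs those identifiers with symbols, so the genes are described by their levels and no function is given.

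Huntington's disease is caused by an expanded CAG repeat, read as a run of glutamines, in the huntingtin gene. Huntingtin is made in cells throughout the brain. The projection neurons of the striatum are affected first and most, and the cerebellum, which coordinates movement, is usually counted among the less affected regions. Knock-in animals carry the expanded repeat in their own huntingtin gene, so that its own promoter drives it in every tissue.

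The tested animals were Long Evans rats labelled Q130 KI Het, heterozygous for the knock-in, and the rats they were set against were WT. Each genotype was sampled at 2, 6 and 12 months, with 5 females and 5 males per genotype and age. Cerebellum, striatum, cortex and hippocampus of all 60 rats were sequenced, which gave 240 study libraries in 24 groups of 10. Libraries of 2 and 6 months belong to sequencing batch 1 and those of 12 months to batch 2, so age 12 months and batch cannot be told apart.

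The study libraries held 25.3 to 50.8 M estimated reads (M, 1e+06; median 34.5 M), and the lowest count of any of the 4 genes in any of them was 212. In 9 libraries the median correlation of log2 levels with the others of their tissue was 0.859 to 0.962, against at least 0.973 in the rest. Of these 9, 8 were Q130 and 1 was WT, and the only cerebellar ones were 2 Q130 males at 2 months. With no symbols, tissue labels were checked through correlations alone: cerebellar libraries correlated at 0.945 to 0.988 with each other and at no more than 0.896 with any other tissue. For the same reason neither cell type markers nor the targeted gene itself could be looked up.

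Levels are given as CPM, counts relative to library size after TMM scaling, when libraries are compared for 1 gene, and as TPM, which also divides by gene length, when genes are compared with each other. In WT cerebellum at 2 months the median level was 41.5 TPM for ENSRNOG00000019246, 27.8 TPM for ENSRNOG00000003687, 16.1 TPM for ENSRNOG00000025889 and 13.8 TPM for ENSRNOG00000061215. None of the 4 is abundant there. Over WT cerebellum at 2 and 6 months, 51.1% of 13714 expressed genes lay below ENSRNOG00000019246 in mean CPM, and 29.4 to 33.6% lay below each of the others.

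The contrast that chose the genes is described first, without a test. At 12 months, Q130 cerebellum had 13.97 to 17.3 CPM of ENSRNOG00000025889 (median 15.9), against 11.0 to 14.1 CPM in WT cerebellum (median 13.1). For ENSRNOG00000003687 the Q130 libraries ran from 10.7 to 13.4 CPM (median 12.4) and the WT libraries from 7.72 to 11.1 CPM (median 9.58). In both genes every Q130 library lay above the WT median, and the ranges overlapped at their edges.

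ENSRNOG00000061215 stood at 20.5 to 30.6 CPM in Q130 cerebellum at 12 months (median 23.6), against 15.4 to 21.3 CPM in WT cerebellum (median 18.9). ENSRNOG00000019246 stood at 27.6 to 32.6 CPM in Q130 (median 29.7) and at 24.1 to 28.4 CPM in WT (median 25.8). Of the 10 Q130 libraries, 9 lay above the highest WT library for ENSRNOG00000025889 and ENSRNOG00000019246, and 8 did so for ENSRNOG00000003687 and ENSRNOG00000061215. In bulk tissue, a change in the share of a cell type cannot be told apart from a change in RNA per cell.

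The size of these differences was modest. On the log2 scale Q130 exceeded WT by 0.37 for ENSRNOG00000061215, 0.34 for ENSRNOG00000003687, 0.29 for ENSRNOG00000025889 and 0.21 for ENSRNOG00000019246, and the ratios of mean CPM were 1.29, 1.26, 1.22 and 1.15 in that order. The p that chose them ran from 5.48e-06 to 8.93e-06. The next 3 genes by p, just outside the choice, were ENSRNOG00000020164, ENSRNOG00000027936 and ENSRNOG00000007189, with p of 1.38e-05 to 1.57e-05 and log2 differences of 0.27, 0.31 and 0.65. The 4 genes were among 131 called higher in Q130 of 15177 tested (0.863%), a count that the choice itself fixes.

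A feature of the animals also follows genotype at 12 months, and nearly so at 6 months. It is the first part of the animal identifiers, whose meaning no source states. At 2 months Q130 rats had 6 first parts and WT rats 5, with 5 shared. At 6 months they had 6 and 7, with 1 shared, and at 12 months 6 and 6, with 0 shared. At 12 months it cannot be told apart from genotype, and at 6 months hardly.

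**Figure D1:**
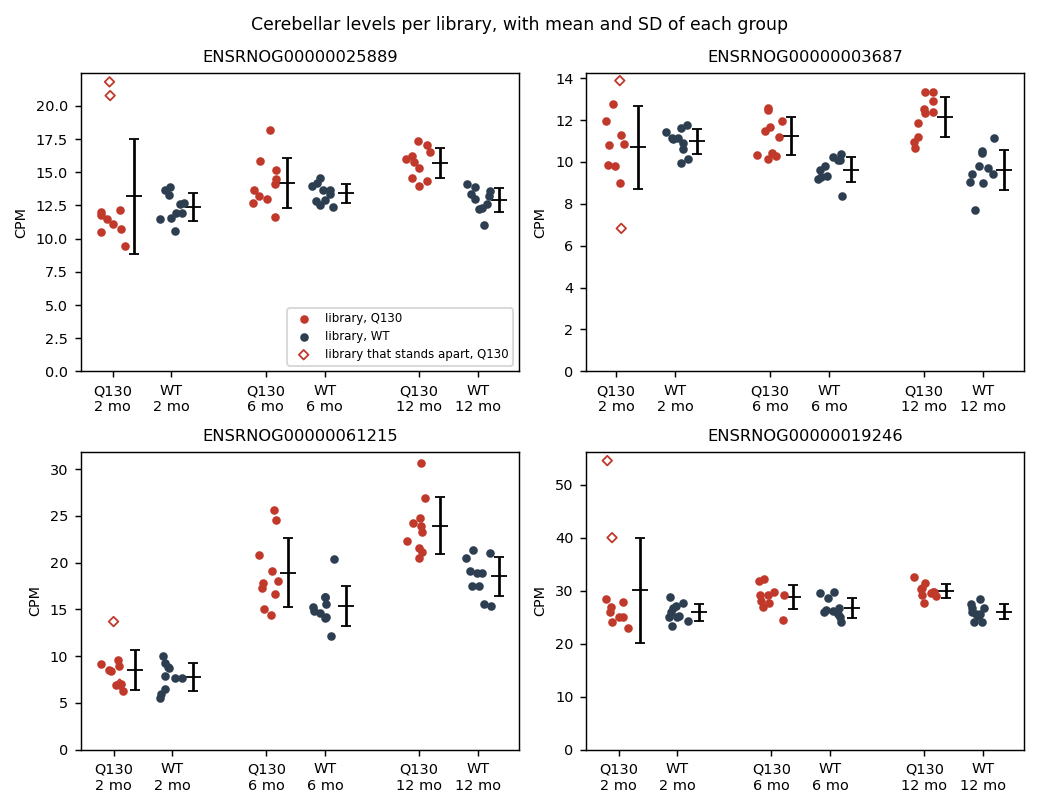
Level in CPM (linear axis from 0) of each gene in each of the 60 cerebellar study libraries, Q130 in red left of WT in dark blue at 2, 6 and 12 months, with the mean and SD of 10 libraries beside each group. Open diamonds are the 2 Q130 libraries at 2 months that stand apart. At 12 months 8 or 9 of 10 Q130 points lie above every WT point, at 6 months 2 to 7 do.

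The rats of 6 months are other animals, sequenced in the other batch, and were not used to choose the genes. The first part of their identifiers also nearly followed genotype. There all 4 estimates were higher in Q130, as were 52.1% of all genes tested, and none of the 4 passed the test across all genes (quasi-likelihood F test of edgeR, threshold 0.05 after Benjamini-Hochberg adjustment). Of 15305 genes, 7 were called higher (0.0457%). At an unadjusted p under 0.05, 3 of the 4 genes were higher in Q130, where 5.82% of all genes were. With DESeq2 2 of the 4 were called, where 89 of 15302 genes were called higher. With limma-voom 0 of the 4 were called, where 0 of 15305 genes were called higher.

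ENSRNOG00000003687 separated the genotypes best at 6 months. Its level was 10.1 to 12.6 CPM in Q130 cerebellum (median 11.3), against 8.36 to 10.4 CPM in WT cerebellum (median 9.70). Every Q130 library lay above the WT median and 7 of 10 above the highest WT library. The log2 difference of 0.22 ± 0.05 (SE, n = 10 against 10) had an edgeR p of 0.000453 and an adjusted p of 0.0683. An exact permutation test of genotype within sex, two-sided, gave an unadjusted p of 6.30e-05. This was the lowest of 8 such tests over the 4 genes at 2 and 6 months. Of the 8, 3 were under 0.05 unadjusted and 2 after Benjamini-Hochberg adjustment over the 8, which covers the chosen genes alone. Without Q130 female 1 or WT male 5 the edgeR adjusted p was 0.0410 and 0.0396, under the threshold in both cases. Of the 20 fits leaving out 1 library, only these 2 called the gene, and the highest edgeR adjusted p was 0.146. Of all genes, 26 and 105 were called higher in these 2 fits in turn, against 7 with all libraries. The difference was 0.19 ± 0.08 in females alone and 0.25 ± 0.08 in males alone.

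ENSRNOG00000061215 had the largest difference of the 4 at 6 months. Q130 cerebellum held 14.4 to 25.7 CPM (median 17.9) and WT cerebellum 12.1 to 20.4 CPM (median 15.1). The ranges overlapped widely: 8 of 10 Q130 libraries exceeded the WT median, but only 3 exceeded the highest WT library, which was male 5. The log2 difference was 0.30 ± 0.09 (SE), with an edgeR p of 0.00366, an adjusted p of 0.132 and an unadjusted exact permutation p of 0.00816. Without WT male 5 it was 0.34 with an adjusted p of 0.0394, and without Q130 female 3 or any other single library it was between 0.23 and 0.34. Of the 20 fits leaving out 1 library, only the 1 without WT male 5 called the gene, and the highest edgeR adjusted p was 0.254.

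The other 2 genes differed less at 6 months. ENSRNOG00000019246 had 24.5 to 32.1 CPM in Q130 cerebellum (median 29.1) and 24.2 to 29.8 CPM in WT cerebellum (median 26.2), a log2 difference of 0.10 ± 0.05 with an edgeR p of 0.0446, an adjusted p of 0.347. Its exact permutation p was 0.0390 unadjusted and did not pass the threshold once adjusted over the 8 tests. For ENSRNOG00000025889 the Q130 range of 11.6 to 18.2 CPM (median 13.9) contained the WT range of 12.4 to 14.6 CPM (median 13.5). Its log2 difference of 0.07 ± 0.06 had an adjusted p of 0.620 and an unadjusted exact permutation p of 0.237, so the gene with the lowest p at 12 months showed no detectable difference at 6 months, with an interval of -0.05 to 0.20.

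At 2 months no difference between genotypes was detectable for any of the 4 genes. Of 15349 genes tested, 0 were called higher in Q130 (0.0%) by edgeR, DESeq2 or limma-voom, and 0.919% were higher at an unadjusted p under 0.05, with 0 of the 4 among them. ENSRNOG00000061215 ran from 6.30 to 13.7 CPM in Q130 (median 8.45) and from 5.49 to 10.05 CPM in WT (median 7.77), a log2 difference of 0.11 ± 0.12. ENSRNOG00000003687 ran from 6.83 to 13.9 CPM in Q130 (median 10.8) and from 9.93 to 11.8 CPM in WT (median 11.1), a difference of -0.06 ± 0.09. All 4 had an adjusted p of 0.973.

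The remaining pair of genes at 2 months rested on the libraries of Q130 males 1 and 2. ENSRNOG00000025889 had 21.8 and 20.8 CPM in these, against 9.46 to 13.9 CPM in the other 18 libraries, and ENSRNOG00000019246 had 39.99 and 54.5 CPM, against 22.9 to 28.7 CPM. With them the log2 differences were 0.06 ± 0.13 and 0.18 ± 0.11 for these genes in turn. Without them ENSRNOG00000025889 was at -0.16 ± 0.06, lower in Q130, with an unadjusted p of 0.0101 and an adjusted p of 0.545, and ENSRNOG00000019246 was at 0.00 ± 0.04. In that fit 1324 of 15435 genes had an unadjusted edgeR p under 0.05, against 244 of 15349 with all libraries.

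Over the 40 cerebellar libraries of 2 and 6 months in 1 fit, with age and sex as terms, all 4 estimates were again higher in Q130. None was called, as was true of all 15724 genes in that direction (0.0%), and DESeq2 and limma-voom also called 0 of the 4. At an unadjusted p under 0.05, 2 of the 4 were higher, where 2.0% of all genes were: ENSRNOG00000061215 at 0.21 ± 0.08 (p = 0.00978) and ENSRNOG00000019246 at 0.14 ± 0.06 (p = 0.0226), both with an edgeR adjusted p of 0.971. ENSRNOG00000003687 was at 0.08 ± 0.06 and ENSRNOG00000025889 at 0.07 ± 0.07. Without the 2 libraries that stand apart these 4 values were 0.20, 0.05, 0.10 and -0.04, so ENSRNOG00000025889 turned sign and ENSRNOG00000019246 fell below the unadjusted threshold.

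Whether the genotype difference itself changed between 2 and 6 months was tested as an interaction. No gene of 15724 was called (0.0%) by edgeR, with 1460 at an unadjusted p under 0.05. ENSRNOG00000003687 was the only one of the 4 among those, with a difference larger at 6 months by 0.28 ± 0.10 on the log2 scale (p = 0.0104, edgeR adjusted p = 0.404). The other 3 were at 0.20 ± 0.15 for ENSRNOG00000061215, 0.01 ± 0.15 for ENSRNOG00000025889 and -0.08 ± 0.12 for ENSRNOG00000019246. Without the 2 libraries that stand apart, ENSRNOG00000025889 was at 0.24 ± 0.08 (p = 0.00602, edgeR adjusted p = 0.150) and ENSRNOG00000003687 at 0.25 ± 0.08 (p = 0.00333, adjusted p = 0.134), and ENSRNOG00000019246 turned to 0.11 ± 0.06 (p = 0.103). In that fit 2689 of 15796 genes had an unadjusted edgeR p under 0.05 and 0 were called.

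**Figure D2:**
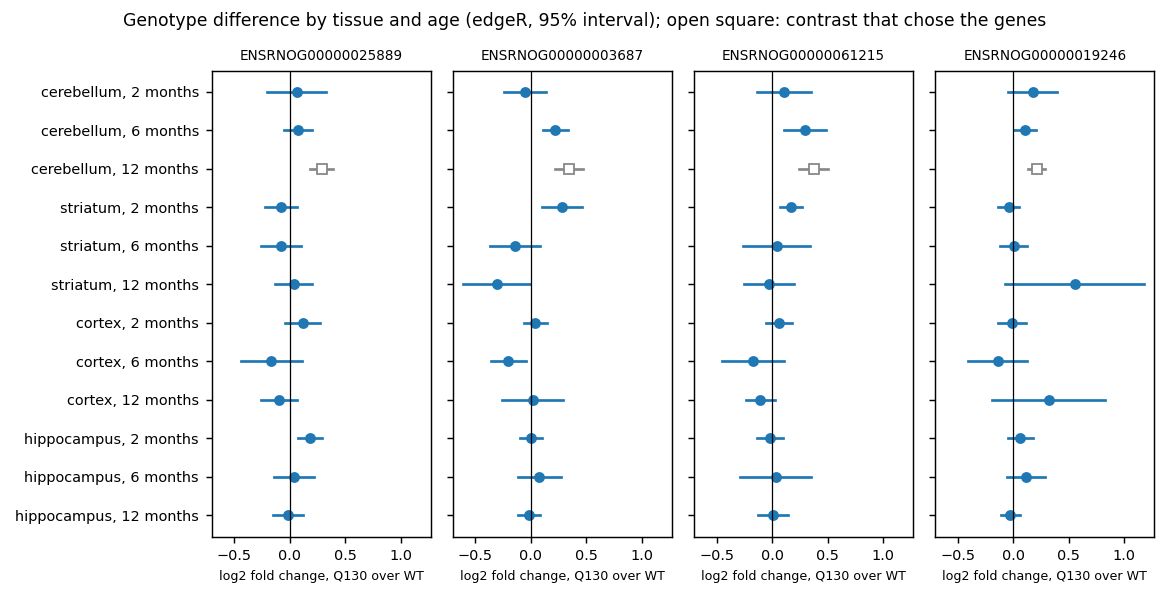
Log2 fold change of Q130 over WT for each gene in each tissue and age, from edgeR with 10 libraries per genotype. Points are estimates and lines 95% intervals, and the open grey square is the 12-month cerebellar contrast that chose the genes. The intervals of ENSRNOG00000003687 and ENSRNOG00000061215 at 6 months in cerebellum lie above 0, at 0.11 to 0.33 and 0.11 to 0.49.

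In the forebrain, the 4 genes did not share a direction. Over striatum, cortex and hippocampus at 3 ages, 18 of the 36 estimates were higher in Q130 and 18 lower. Fitted for each tissue and age apart, edgeR and limma-voom called none of them in either direction. Of all genes, 2.54% were called in striatum at 2 months, 0.00645% in cortex at 2 months and 0.0% in each of the other 7 comparisons. At an unadjusted p under 0.05, 5 of the 36 estimates stood out, 3 higher and 2 lower. The shares of all genes at that p were 19.6, 3.85 and 9.76% in striatum at 2, 6 and 12 months, 2.31, 6.22 and 4.05% in cortex, and 6.14, 3.35 and 4.67% in hippocampus. The 12-month forebrain libraries come from the same rats whose cerebellum chose the genes.

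The striatum at 2 months came closest to a call, for the same 2 genes that differed most in cerebellum at 6 months. ENSRNOG00000061215 stood at 88.3 to 123 CPM in Q130 striatum (median 109), against 84.9 to 122 CPM in WT striatum (median 94.7), and 9 of 10 Q130 libraries exceeded the WT median. Its log2 difference was 0.17 ± 0.05 with an edgeR adjusted p of 0.0504. ENSRNOG00000003687 had 30.7 to 48.7 CPM in Q130 (median 37.6) and 25.2 to 43.8 CPM in WT (median 33.7), a difference of 0.28 ± 0.08 with an adjusted p of 0.0739. DESeq2 called both, with adjusted p of 0.0191 and 0.0186 in the order given. It called 461 of 15499 genes higher in this comparison, against 182 of 15500 with edgeR. With the repeat libraries of batch 2 in place of the first ones for the males sequenced again, the differences were 0.15 and 0.21 with edgeR adjusted p of 0.384 and 0.502, and 0 genes of any kind were called. That fit mixed libraries of both batches with no term for batch. The loss of calls cannot be told apart from spread added by the mixing. Since 19.6% of all genes passed the unadjusted threshold in the main fit of this comparison, 2 of 4 genes stand against a wide background.

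Neither gene was called in striatum at later ages. ENSRNOG00000003687 was at -0.14 ± 0.11 at 6 months and -0.31 ± 0.15 at 12 months, where Q130 striatum had 19.3 to 53.1 CPM (median 31.5) and WT striatum 33.5 to 50.4 CPM (median 41.7), with an unadjusted edgeR p of 0.0464 and an adjusted p of 0.496. The 6-month estimate includes Q130 male 1, which stands apart, at 18.3 CPM against 24.1 to 45.9 CPM in the other 19 libraries. ENSRNOG00000061215 was at 0.04 ± 0.14 at 6 months and -0.03 ± 0.11 at 12 months. In cortex at 6 months all 4 genes had lower estimates in Q130, from -0.20 to -0.14, and ENSRNOG00000003687 had the lowest, with an unadjusted edgeR p of 0.0132 and an adjusted p of 0.708. The cortex library of WT male 4, which stands apart, lay above the other 19 libraries in all 4 genes. Without it, 2 of the 4 estimates were higher in Q130, so the shared direction depended on that library.

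ENSRNOG00000025889 had its only forebrain difference past an unadjusted p of 0.05 in hippocampus at 2 months. Q130 hippocampus held 15.6 to 20.3 CPM (median 18.4) and WT hippocampus 14.2 to 17.9 CPM (median 16.4), and 6 of 10 Q130 libraries lay above the highest WT library. The log2 difference was 0.18 ± 0.05, with an edgeR p of 0.00239 and an adjusted p of 0.709. At 6 and 12 months it was 0.04 ± 0.09 and -0.02 ± 0.07.

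ENSRNOG00000019246 had the largest forebrain estimate, 0.55 ± 0.30 in striatum at 12 months, and 1 library carried it. Q130 male 3 had 129 CPM there, while the other Q130 and WT libraries that do not stand apart had 20.3 to 25.3 CPM. The adjusted p was 0.507. In cortex at 12 months the estimate of 0.32 ± 0.24 rested likewise on Q130 male 4, at 86.9 CPM against 18.5 to 22.7 CPM in the other 19 libraries, and without it the estimate was -0.06.

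The libraries that stand apart carried extreme values of all 4 genes. Of the 9, 6 lay above the range of the other libraries of their tissue and age for ENSRNOG00000019246, 6 for ENSRNOG00000003687, 5 for ENSRNOG00000061215 and 4 for ENSRNOG00000025889. Fewer lay below it: 0, 3, 2 and 1 for the genes in that order. The share of all genes outside the range was not counted, so these counts are not read as a trait of the 4 genes. The 9 libraries were set apart by a low correlation over 15766 genes. The only WT library among them, cortex of male 4 at 6 months, lay above the range in all 4 genes, with 249 CPM of ENSRNOG00000061215 against 87.2 to 126 CPM in the other 19. A striatal library of a Q130 male at 6 months correlated best with hippocampus (0.986), and a hippocampal one, from the same rat, best with striatum (0.983). In those the level of ENSRNOG00000061215 followed the other tissue: 204 CPM in the library labelled striatum, against 75.8 to 130 CPM in other striatum, and 88.6 CPM in the library labelled hippocampus, against 135 to 273 CPM in other hippocampus. With the tissue of its own label, each of these libraries correlated at no more than 0.962. Each was thus closer to the tissue on the label of the other library. Both stayed in the 6-month fits under their labels. Without the libraries that stand apart, the log2 difference of this gene at 6 months was -0.11 in striatum, against 0.04 with them, and 0.05 in hippocampus, against 0.03 with them.

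Across WT tissues the 4 genes had different patterns, and on the CPM scale of the test 3 of them were lowest in the cerebellum, the tissue for which they were chosen. In TPM the same held at 2 months, while ENSRNOG00000025889 had a median of 17.8 TPM in WT cerebellum and 16.4 TPM in WT striatum at 6 months, and 17.4 TPM in WT cerebellum and 16.1 TPM in WT striatum at 12 months. Tissues of the same WT rats were compared with the animal as a block. ENSRNOG00000061215 was by far the most uneven. At 2 months its WT median was 367 TPM in hippocampus, 178 TPM in cortex, 135 TPM in striatum and 13.8 TPM in cerebellum. The cerebellum was lower than hippocampus by a log2 difference of -4.79 ± 0.08, than cortex by -3.88 ± 0.08 and than striatum by -3.64 ± 0.08, and each neighbour in that order differed from the next (largest edgeR adjusted p = 0.000980). At 6 months cortex and striatum no longer differed beyond their spread (adjusted p = 0.139).

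ENSRNOG00000003687 was highest in striatum. Its WT medians at 2 months were 66.7 TPM in striatum, 59.3 TPM in cortex, 38.2 TPM in hippocampus and 27.8 TPM in cerebellum. All neighbours differed, the closest being striatum over cortex at 0.26 ± 0.06 (edgeR adjusted p = 0.000101). The same order held at 6 months, with the cerebellum below striatum by -1.92 ± 0.07.

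The other 2 genes spanned narrower ranges. ENSRNOG00000025889 had WT medians at 2 months of 24.6 TPM in cortex, 19.96 TPM in hippocampus, 17.0 TPM in striatum and 16.1 TPM in cerebellum. On the CPM scale of the test, the cerebellum was below cortex by -0.77 ± 0.05 at 2 months and -0.92 ± 0.10 at 6 months (adjusted p = 1.41e-16 and 6.29e-10), and striatum and hippocampus did not differ beyond their spread at 2 or 6 months (edgeR adjusted p = 0.208 and 0.894). ENSRNOG00000019246 was the only one of the 4 highest in the cerebellum, with 41.5 TPM there, against 29.1 TPM in striatum, 27.8 TPM in hippocampus and 26.3 TPM in cortex. Cerebellum exceeded striatum by 0.18 ± 0.04 at 2 months (adjusted p = 2.68e-05) and by 0.15 ± 0.10 at 6 months (adjusted p = 0.152), and cortex and hippocampus did not differ beyond their spread at either age. Without the WT cortex library of male 4, the cerebellum exceeded striatum at 6 months by 0.16 with an adjusted p of 0.00305, and striatum exceeded cortex by 0.22 and hippocampus by 0.18 (adjusted p = 0.000186 and 0.000983).

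Differences between tissues were the rule for all genes. At 2 months the cerebellum differed in all 4 genes from each forebrain tissue, where 85.0% of 16194 genes differed from striatum, 82.2% from cortex and 82.7% from hippocampus. Striatum and cortex differed in all 4 (79.9% of genes), striatum and hippocampus in 3 (77.3%), and cortex and hippocampus in 3 (69.2%). At 6 months the numbers were 3 for cerebellum and striatum (80.0%), 4 for cerebellum and cortex (76.2%) and 4 for cerebellum and hippocampus (76.3%). Within the forebrain at 6 months they were 2 for striatum and cortex (71.8%), 2 for striatum and hippocampus (67.5%) and 3 for cortex and hippocampus (57.9%). The count for the 4 genes was thus near that of genes in general.

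**Figure D3:**
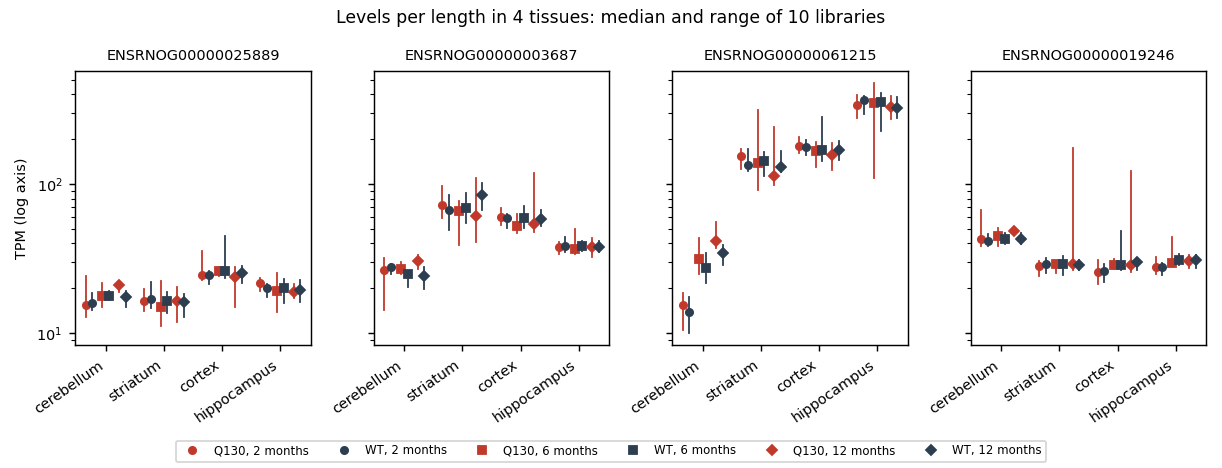
Level in TPM (log axis) of each gene in 4 tissues at 2, 6 and 12 months. Markers are medians and lines the lowest to highest of 10 libraries, with Q130 in red left of WT in dark blue at each age. ENSRNOG00000061215 spans WT medians of 13.8 TPM in cerebellum to 367 TPM in hippocampus at 2 months, while ENSRNOG00000019246 is highest in cerebellum.

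Age moved 1 of the genes strongly in the cerebellum of WT rats. ENSRNOG00000061215 had 5.49 to 10.05 CPM at 2 months (median 7.77), 12.1 to 20.4 CPM at 6 months (median 15.1) and 15.4 to 21.3 CPM at 12 months (median 18.9). The groups of 2 and 6 months did not overlap, and the log2 change was 0.98 ± 0.09 (edgeR adjusted p = 6.47e-08). In Q130 cerebellum the medians were 8.45, 17.9 and 23.6 CPM at the 3 ages. The step to 12 months is also a step between batches and is given as a level only.

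ENSRNOG00000003687 moved the other way in WT cerebellum, by -0.19 ± 0.05 at 6 over 2 months (edgeR adjusted p = 0.00796), with a WT median of 11.1 CPM at 2 months, 9.70 CPM at 6 months and 9.58 CPM at 12 months. In Q130 cerebellum the medians were 10.8, 11.3 and 12.4 CPM at 2, 6 and 12 months. ENSRNOG00000025889 changed by 0.12 ± 0.05 (adjusted p = 0.102) and ENSRNOG00000019246 by 0.05 ± 0.04 (adjusted p = 0.464). Thus 2 of the 4 genes changed with age in WT cerebellum, where 19.8% of 15342 genes did.

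No such change of ENSRNOG00000061215 was seen in the forebrain. Its WT estimates at 6 over 2 months were 0.14 ± 0.06 in striatum (edgeR adjusted p = 0.153), 0.09 ± 0.13 in cortex and -0.03 ± 0.08 in hippocampus. Of the 12 forebrain estimates only ENSRNOG00000019246 in hippocampus was called, higher at 6 months by 0.19 ± 0.05 (adjusted p = 0.00613). ENSRNOG00000025889 in cortex was at 0.31 ± 0.13 (adjusted p = 0.224), and at 0.14 with an adjusted p of 0.0371 without WT male 4. The counts were 0 of 4 in striatum, 0 of 4 in cortex and 1 of 4 in hippocampus, with 17.1%, 3.55% and 17.1% of all genes changed there. Sex made no detectable difference to the 4 genes in WT cerebellum over 2 and 6 months: 0 were called and 0 had an unadjusted edgeR p under 0.05, where 33 of 15342 genes were called (0.215%).

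Since ENSRNOG00000061215 is much higher in forebrain than in cerebellum, the level of other such genes in the cerebellar libraries is given beside it. The measure, chosen after the pattern was seen, is the summed CPM of 372 other genes that were at least 2 log2 units higher in each forebrain tissue than in cerebellum of WT rats at 2 months. At 2 months the summed level was 3028 to 3629 CPM in Q130 cerebellum (median 3356) and 3075 to 3621 CPM in WT cerebellum (median 3246). At 6 months it was 3117 to 3572 CPM in Q130 (median 3448) and 3180 to 3742 CPM in WT (median 3417), and at 12 months 3333 to 3587 CPM in Q130 (median 3411) and 3184 to 3506 CPM in WT (median 3382). In WT cerebellum the median change of these genes at 6 over 2 months was 0.00 on the log2 scale, and 99.2% of them changed less than ENSRNOG00000061215. Between genotypes the median log2 difference was 0.02 over the 304 of them tested at 2 months, -0.02 over 303 at 6 months and 0.03 over 294 at 12 months, beside 0.00 for all genes at each age. Estimates were higher in Q130 for 168 of the 304, 132 of the 303 and 181 of the 294. Of all genes, 50.5, 52.1 and 49.5% had higher estimates at these ages in turn.

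**Figure D4:**
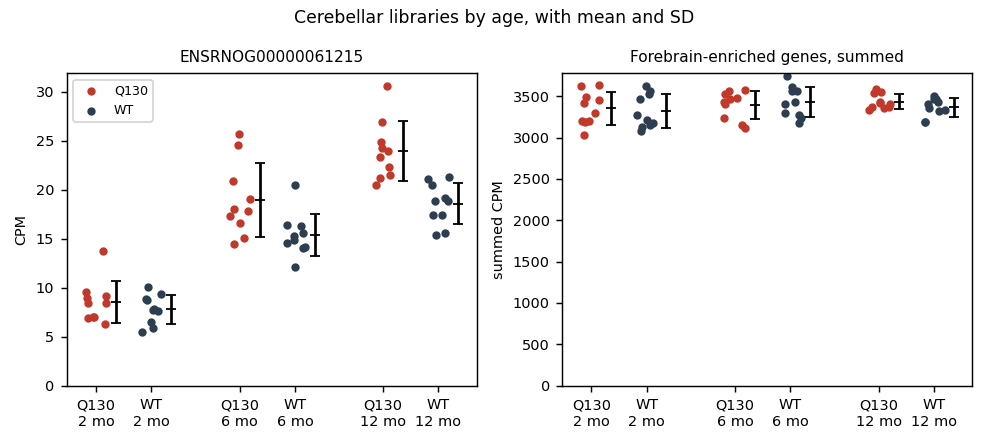
Level in CPM of ENSRNOG00000061215 (left) and summed CPM of 372 genes enriched in forebrain (right) in each cerebellar library, with the mean and SD of 10 libraries, Q130 in red left of WT in dark blue at 2, 6 and 12 months. Axes start at 0. The WT medians of ENSRNOG00000061215 are 7.77, 15.1 and 18.9 CPM, and those of the summed level 3246, 3417 and 3382 CPM.

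Covariation of the 4 genes from rat to rat was examined in pairs. Over the 40 cerebellar libraries of 2 and 6 months, after the mean of each genotype, age and sex was removed, 6 pairs were compared. The closest was ENSRNOG00000025889 with ENSRNOG00000019246, with a Pearson r of 0.75 (permutation p = 0.0130, adjusted over 6 pairs 0.0778) and a Spearman rho of 0.42 (permutation p = 0.0335, adjusted 0.201). Without the 2 libraries farthest from the median of ENSRNOG00000025889, which are the pair that stands apart, r was 0.62 (n = 38, permutation p = 0.0873). The removed group means had been taken with those 2 libraries in, so this r is not free of them. When the 2 libraries farthest from the median among the 38 were dropped as well, r was 0.32. None of the 6 pairs passed the threshold after adjustment. The other 5 pairs had r between -0.18 and 0.33, each with an adjusted permutation p of at least 0.347.

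The closest partners among all expressed genes were looked up as well. They are the highest r of 13731 candidates for each gene, so a high value follows from the search. The member pairs were not picked this way and used 40 libraries, so the 2 sets of r are not compared. By the same residual log2 CPM over the 60 cerebellar libraries, and as a description, ENSRNOG00000019246 was nearest to ENSRNOG00000042233 (r = 0.94) and ENSRNOG00000013874 (r = 0.92), and ENSRNOG00000025889 to ENSRNOG00000001551 and ENSRNOG00000042869 (r = 0.88 each). ENSRNOG00000003687 was nearest to ENSRNOG00000003025 (r = 0.76) and ENSRNOG00000017730 (r = 0.74), and ENSRNOG00000061215 to ENSRNOG00000011329 (r = 0.68) and ENSRNOG00000004364 (r = 0.66). Without the 2 libraries that stand apart (n = 58) the 8 values ran from 0.49 to 0.88, and the nearest partner was still the same for ENSRNOG00000019246 and ENSRNOG00000061215. The removed group means still included those 2 libraries, so these values are not free of them. All values share the same libraries and scaling.

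Repeat libraries give the error between sequencing batches. For 12 males of 2 and 6 months the striatum was sequenced again in batch 2. The repeat differed from the first library by a mean log2 of -0.12 ± 0.30 for ENSRNOG00000025889, 0.09 ± 0.18 for ENSRNOG00000003687, 0.03 ± 0.20 for ENSRNOG00000061215 and 0.00 ± 0.17 for ENSRNOG00000019246 (SD, n = 12 pairs). The repeat was the higher of the pair in 3, 9, 6 and 6 of 12 rats for the genes in that order. A shift between batches was not tested, and no cerebellar sample was repeated.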

How the data were processed

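Total RNA of flash-frozen tissue was extracted with a Qiagen kit, enriched and made into standard Illumina libraries, per the labels' protocols. Which aligner, counter and build were used is not given in the sources used here. Estimated counts per gene were deposited, and their totals differ between libraries, per the file's values. The authors also deposited a gene table named for FPKM, but each of its columns sums to 1e+06, as TPM does, and its values are called TPM here. Tables of transcripts were not used here.

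Counts were rounded and tested with edgeR 4.0.16 (R 4.3.3, limma 3.58.1): filterByExpr by genotype, TMM, robust quasi-likelihood F test, sex as covariate, 10 Q130 against 10 WT libraries, Benjamini-Hochberg adjustment over all genes tested, genes called at an adjusted p under 0.05. All 4 genes passed the low-count filter in each of the 12 comparisons of tissue and age. CPM used TMM factors over all 252 libraries, and log2 CPM a prior count of 2. On simulated counts for cerebellum at 6 months (15235 genes, 200 changed), edgeR recovered 96% of changes of 0.5 and 99% of changes of 1 on the log2 scale, with 6 false calls, against 7 for limma-voom and 28 for DESeq2. Changes below 0.5, such as those of the 4 genes in cerebellum, were not simulated, so these rates do not give their recovery. Alternatives were DESeq2 1.42.0, limma-voom, DESeq2 size factors, no filter, 1 fit per tissue, the replicate number as a block, each sex alone, the other column of repeated rats, and leaving out libraries.

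The 4 genes, the gene lists and the tests were chosen with earlier results of these data known. Named beside the 4 are the next 3 genes by p and, for each, the 2 genes with the highest correlation of residuals among those of at least 1 CPM. None of the reference rows carries an Ensembl identifier (0), so no symbols were matched, the 17 symbol lists were not tested and no sequences are shown. For the 12 rats sequenced in both batches, which of the pair of columns is the repeat was inferred from the column names. Replicates are separate animals. Replicate numbers are shared between genotypes. Same-numbered cerebellar libraries deviated together (r over 0.1) in 3, 4 and 1 of 10 pairs at 2, 6 and 12 months. At 6 months all 10 values were positive, from 0.025 to 0.28, and 7 of 10 pairs correlated best with their own number. The main fits did not pair rats by number, and the block by number is given as an alternative.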

Additional observations from a re-analysis of the deposited data

Results flagged for a closer look

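In each group of 10 libraries, the highest or lowest value was flagged when its gap to the next, divided by the range of the group, exceeded Dixon's limit of 0.466. This flagged 20 of 96 groups of gene, tissue, age and genotype, where chance flags about 1 in 20. Of the 20 values, 13 belong to libraries that stand apart from their tissue, and the part played by those libraries was not tested further than by leaving them out.

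Those 13 values are in CPM. In cortex of Q130 male 4 at 12 months, ENSRNOG00000025889 was low at 13.1, while ENSRNOG00000003687 was high at 55.4 and ENSRNOG00000019246 at 86.9. In cortex of WT male 4 at 6 months, ENSRNOG00000025889 was at 54.2, ENSRNOG00000061215 at 249 and ENSRNOG00000019246 at 47.3, all high. In hippocampus of Q130 male 3 at 6 months, ENSRNOG00000025889 was at 24.0 and ENSRNOG00000019246 at 34.2, and in male 5 of that group ENSRNOG00000003687 was at 28.9, all high. In striatum, ENSRNOG00000061215 was high at 155 in Q130 female 2 at 12 months and at 204 in Q130 male 1 at 6 months, and ENSRNOG00000019246 at 129 in Q130 male 3 at 12 months. In cerebellum, ENSRNOG00000061215 was high at 13.7 in Q130 male 2 at 2 months.

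The other 7 values come from libraries that otherwise resembled their tissue. In cortex of Q130 male 4 at 2 months, ENSRNOG00000025889 was at 35.4 and ENSRNOG00000061215 at 151, both high. ENSRNOG00000061215 was high at 20.4 in cerebellum of WT male 5 at 6 months, the library whose removal brought 2 of the genes under the threshold, and at 122 in striatum of WT male 2 at 2 months. ENSRNOG00000019246 was high at 25.1 in hippocampus of Q130 female 5 at 2 months and at 25.3 in hippocampus of WT male 3 at 6 months, and low at 15.7 in cortex of WT male 1 at 2 months. No 12-month cerebellar library was flagged for any of the 4 genes. A low p in those libraries chose the genes, which favours a small spread within groups, so this absence says nothing further.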

How the results depend on the processing

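Over the alternative fits across all genes, and leaving out the 12-month cerebellar contrast that chose the genes, 512 of 566 log2 differences between genotypes of the 4 genes kept their direction and their side of the threshold, 8 passed it only under the alternative, and 46 turned sign. Every value that turned sign was uncalled in both fits. Precision is set by 10 rats per genotype, by the libraries that stand apart and by batch, which age 12 months shares.

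The number of the 4 genes called higher in Q130 moved as follows, and the cause was not tested. In cerebellum at 6 months it was 2 with DESeq2 and 0 to 2 when single libraries were left out. In cerebellum at 12 months, where the genes were chosen, it was 0 in females only, 1 in males only (fewer rats in both cases) and 1 in the fit over 60 libraries. In striatum it was 2 at 2 months with DESeq2 and 1 at 12 months in the fit over 60 libraries.

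Of all genes tested, the number called in either direction moved by over 1.5 times as follows. In cerebellum at 12 months it was 238 as reported, and 105 with no filter, 653 with DESeq2, 125 with the block, 0 in females, 88 in males and 49 in the fit over 60 libraries. In cerebellum at 6 months it was 44 as reported, and 12 with DESeq2 size factors, 10 with no filter, 370 with DESeq2, 9 with limma-voom, 18 with the block, 6 in females, 2 in males and 3 in the fit over 60 libraries. In striatum at 2 months it was 393 as reported, and 946 with DESeq2, 259 with the block, 2 in females, 1 in males, 0 with the other column of repeated rats and 1 in the fit over 60 libraries. In the fit over 60 libraries, 1124 genes were called in striatum and 324 in cortex at 12 months, against 0 as reported in both. The other 8 comparisons had 0 or 1 genes as reported and at most 13 under an alternative. Leaving out single cerebellar libraries gave 4 genes (without Q130 female 2) to 471 (without WT male 5) at 6 months and 50 (without WT male 4) to 446 (without WT female 1) at 12 months.

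The replicate block changed no call and left 0.22 for ENSRNOG00000003687 and 0.28 for ENSRNOG00000061215 in cerebellum at 6 months, with adjusted p of 0.0858 and 0.0643. Same-numbered libraries correlated best with each other in 4, 7 and 1 of 10 pairs at 2, 6 and 12 months. With the block, ENSRNOG00000061215 turned to -0.0077 in striatum and -0.0091 in hippocampus at 6 months, and ENSRNOG00000003687 to -0.035 in cortex at 12 months. With limma-voom these 3 were at -0.0070, -0.019 and -0.025.

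Without the libraries that stand apart, these log2 differences between genotypes turned sign. ENSRNOG00000025889 was at -0.16 in cerebellum at 2 months, -0.036 over 2 and 6 months, 0.0024 in cortex and -0.0072 in hippocampus at 6 months. ENSRNOG00000003687 was at -0.15 in cortex at 12 months and -0.059 in hippocampus at 6 months. ENSRNOG00000061215 was at -0.11 in striatum at 6 months. ENSRNOG00000019246 was at -0.0032 in cerebellum at 2 months, 0.023 and -0.057 in cortex at 6 and 12 months, and -0.0027 in hippocampus at 6 months. Of the other differences, WT age in cortex was at -0.070 for ENSRNOG00000061215, WT cortex over hippocampus at 6 months at -0.035 and the interaction with age at 0.11 for ENSRNOG00000019246. The correlation of ENSRNOG00000003687 with ENSRNOG00000019246 was -0.089 in place of 0.061, with the removed group means still taken over all libraries.

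In females only, ENSRNOG00000025889 turned to -0.14 in cerebellum at 2 months, 0.026 in striatum at 6 months, -0.00029 and 0.013 in cortex at 2 and 6 months, and 0.045 in hippocampus at 12 months. ENSRNOG00000003687 turned to -0.12 in cortex at 12 months and to -0.076 and 0.058 in hippocampus at 6 and 12 months. ENSRNOG00000061215 turned to -0.0088 in cerebellum at 2 months, 0.087 in striatum at 12 months, 0.050 in cortex at 6 months and 0.024 in hippocampus at 2 months. ENSRNOG00000019246 turned to 0.023 and -0.0026 in cortex at 6 and 12 months. In males only, ENSRNOG00000025889 turned to 0.059 and -0.15 in striatum at 2 and 12 months and -0.019 in hippocampus at 6 months. ENSRNOG00000003687 turned to 0.059 in hippocampus at 2 months, and ENSRNOG00000061215 to -0.055 and -0.064 in hippocampus at 6 and 12 months. ENSRNOG00000019246 turned to 0.0029 and -0.023 in striatum at 2 and 6 months and 0.022 in cortex at 2 months.

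With no low-count filter, ENSRNOG00000019246 in striatum at 6 months was at -9.6e-05 and ENSRNOG00000003687 in hippocampus at 2 months at 0.0015. With the other column of repeated rats, ENSRNOG00000025889 in striatum at 6 months was at 0.0015. Leaving out single libraries gave -0.037 to 0.11 for ENSRNOG00000025889 and -0.094 to 0.0051 for ENSRNOG00000003687 in cerebellum at 2 months.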
